A study of Mus musculus with 2 samples.

Results

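The cells described here were collagen-expressing mesenchymal cells with little or no Crabp1 in tissue around the dorsal aorta and in the fetal liver of mouse embryos at E11.5, where E stands for embryonic day. A cell was a member when it held at least 2 unique molecular identifiers (UMIs, each a counted RNA molecule) of Pdgfra, the PDGF receptor α, and at least 10 UMIs of Col1a1 and Col3a1 together. It could hold at most 1 UMI of Crabp1, fewer than 10 of Acta2, at most 1 each of Lhx2 and Barx1, at most 2 of Upk3b, and none of Sox10 or Nr5a1. The last 6 genes mark smooth muscle, liver stellate precursors, gut mesenchyme, mesothelium, neural crest and adrenal or gonadal cells in that order. In the E11.5 library, 371 of 8907 cells met the rule (4.17%, 95% interval 3.76 to 4.60), and the same rule in the E10.5 library gave 346 of 7665 cells (4.51%, 4.06 to 5.0). Members were compared with the 552 E11.5 cells that met every other criterion but held at least 5 Crabp1 UMIs (called Crabp1-rich), the other 8536 cells of the E11.5 library, and the 346 cells at E10.5. All came from C57BL/6 embryos, for which the labels record neither a treatment nor an altered allele, and each stage was a single library in which dorsal aorta, its surroundings and fetal liver were mixed. With 1 library per stage there was no replicate, so no test was possible, every 95% interval covers counting error only, and stage, library and the piece of tissue taken cannot be told apart.

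Mesenchymal cells of the embryo lie loosely in a matrix that they make themselves, and most of the connective tissue, dermis, skeleton and stroma of organs descends from them. Pdgfra marks a broad range of these cells, and Col1a1 and Col3a1 encode chains of the fibrillar collagens that give tissue its tensile strength. Crabp1 encodes a cytoplasmic protein that binds retinoic acid, a vitamin A derivative that patterns the trunk, and its expression in mesenchyme differs from one position to another. Mesenchyme beside the dorsal aorta and within the liver also secretes growth factors that act on vessels and blood cells.

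Members held a median of 12988 UMIs and 4067 genes, against 16172.5 UMIs in Crabp1-rich cells, 14262 in the rest of the E11.5 library and 22092.5 in the E10.5 cells that met the rule. Levels are given as CPM, the UMIs of a gene per 1000000 UMIs summed over a group of cells, leaving haemoglobin and mitochondrial genes out of the total, and differences as log2 ratios of CPM with the members on top, with the exact 95% interval where 2 further values follow in the same parentheses. Across the 2 libraries, 37 barcodes occurred in both, and 3 E11.5 members shared a barcode with the E10.5 library. The label of mesenchyme was checked against 8 markers, all of which were detected. Their summed level was 3608 CPM in members, 3083 CPM in Crabp1-rich cells, 1791 CPM at E10.5 and 1464 CPM in the rest of the E11.5 library. Of those markers 3 (Pdgfra, Col1a1 and Col3a1) were part of the rule, so the sum was in part built in. Col1a2, Prrx1, Twist1, Twist2 and Pdgfrb were not. Prrx1 had a UMI in 71.2% of members and 44.0% of the rest. Col1a2, which encodes the second chain of type I collagen, had 1024 CPM in members and 410.5 CPM in the rest. Twist1, a transcription factor of mesenchyme, had 508 CPM in members and 143 CPM in the rest. Pdgfrb, the other PDGF receptor, had 82.4 CPM in members and 33.1 CPM in the rest. Twist2 was at least 2-fold lower in members than in Crabp1-rich cells, and its level in the rest is not given here.

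Among 5 muscle markers, 3 were at 0 in members and the sum was 0.372 CPM, while 6 limb markers summed to 3.53 CPM and 5 mesothelium markers to 7.63 CPM, with 1 of each at 0. The mesothelium markers include Upk3b, which the rule limited, so their low sum was in part built in. Not every other class was low: 5 gonad and adrenal markers, which include Nr5a1 of the rule, summed to 189 CPM in members and 169 CPM in the rest. Markers of liver cells and blood were not at 0. The 6 hepatoblast markers summed to 2090 CPM in members, against 701 CPM in Crabp1-rich cells and 4132 CPM in the rest. They include Dlk1, which had a UMI in 95.4% of members, 94.2% of Crabp1-rich cells and 78.9% of the rest. This sum is therefore not a measure of liver UMIs alone. The 4 megakaryocyte markers summed to 189 CPM in members, against 28.9 CPM in Crabp1-rich cells and 468 CPM in the rest. The 8 markers of red cells summed to 1439 CPM in members, against 5263 CPM in Crabp1-rich cells and 19772 CPM in the rest. The UMIs of Afp and Pf4 lay in few cells: 5 members held 94.6% of the 4736 Afp UMIs, and 1 member held 87.1% of the 890 Pf4 UMIs. In all, 12 members (3.23%) were called of mixed content. Each held at least 20 UMIs of Alb, Afp, Apoa1 and Ttr together, of megakaryocyte, white blood cell or endothelial markers, or at least 10% globin. Without them Afp stood at 45.8 CPM and Pf4 at 21.1 CPM, and values over the remaining 359 cells are given below beside several of the results. Gene ratios given without the 12 members also leave out the 11 Crabp1-rich cells and the 1 E10.5 cell that met the same limits. The rest was kept whole in those ratios. Whether the 12 members were doublets was not tested. Scrublet, a doublet caller, marked 0 of 9756 E11.5 cells at its automatic threshold, so it did not work there and no cell was removed, while 30 members were among the 8% of cells with the highest doublet score.

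The rule drew its lines inside continuous ranges. Members held a median of 3 Pdgfra UMIs (2 to 12), 9 of Col1a1 and 10 of Col3a1. Of the members, 178 held exactly 2 Pdgfra UMIs, and 265 cells that met every other criterion held 1. At the collagen threshold, 19 members held 10 UMIs and 28 cells just outside held 9. Crabp1, on chromosome 9 (54764748 to 54773110, plus strand, GRCm38), was at 0 in 261 members and at 1 in 110, while 56 cells otherwise alike held 2 UMIs and 58 held 3. Crabp1 was the criterion that alone set aside the most cells: 716 E11.5 cells failed on it alone, against 558 on Pdgfra alone and 169 on collagen alone. Among all cells that met the other criteria, 552 held 5 UMIs or more and 275 of those 20 or more. The 164 cells with 2 to 4 UMIs were kept out of the Crabp1-rich group and counted with the rest.

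**Figure D1:**
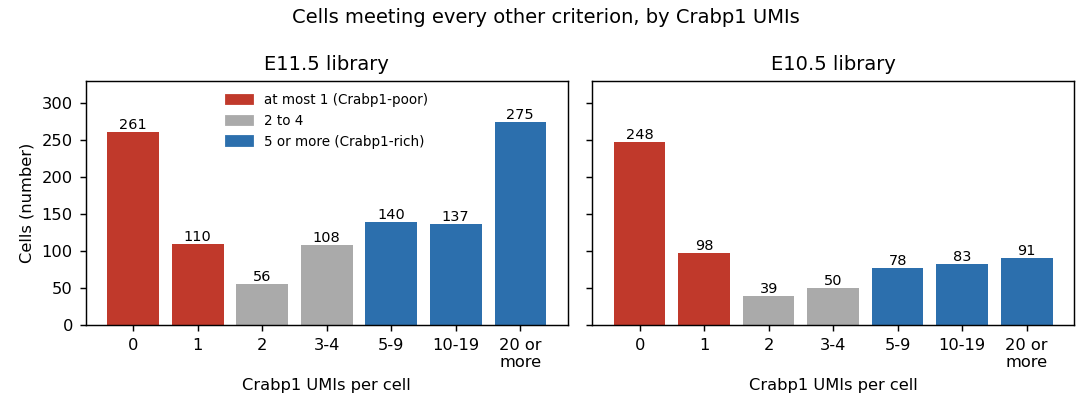
Number of cells (vertical axis) by Crabp1 UMIs per cell (horizontal axis, in bins that widen to the right) among cells meeting every other criterion, in the E11.5 library (left) and the E10.5 library (right). Red bars are Crabp1-poor cells (261 and 110 at E11.5), grey bars cells with 2 to 4 UMIs, and blue bars Crabp1-rich cells, of which 275 held 20 or more UMIs at E11.5, against 91 at E10.5.

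The E11.5 share of members was 0.92 times the E10.5 share (0.79 to 1.07), but this ratio moved with the thresholds and with thinning. When every cell was first thinned to 5000 UMIs, with minima of 1 Pdgfra and 5 collagen UMIs, 531 of 8189 E11.5 cells met the rule (6.48%), against 172 of 6852 E10.5 cells (2.51%), a fold of 2.58 (2.17 to 3.09). Depth and minima changed together in that count, so their parts cannot be told apart, and at full depth the fold with 1 Pdgfra UMI in place of 2 was 1.19 (1.05 to 1.34). With a minimum of 20 collagen UMIs the shares were 2.03% at E11.5 and 0.744% at E10.5 (2.73-fold, 2.02 to 3.75). With at most 5% mitochondrial UMIs per cell the fold was 0.83 (0.70 to 0.99). At E10.5 the criterion that most often failed alone was collagen (584 cells), and members there held a median of 2 Col1a1 UMIs against 11 of Col3a1.

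Members and Crabp1-rich cells differed in transcription factors and secreted signals, while both met the same collagen minimum. Of 11053 genes with at least 50 UMIs in both groups together, 331 were at least 2-fold higher in members (2.99%) and 168 at least 2-fold lower (1.52%), and the median over all genes was -0.01. Among the 12 genes that led the higher side, 9 (Ttr, Afp, Pf4, Rbp4, Apoa2, Trf, Fgb, Serpina6 and Apoa1) were products of hepatocytes or platelets. Without the 12 members described above and the 11 Crabp1-rich cells of mixed content, 8 of those 9 stood between 0.03 (Serpina6) and 0.55 (Trf). Fgb then stood at 1.23 (0.21 to 2.27) on 20 UMIs in members and 16 in Crabp1-rich cells. The other 3 were Lhx9, Hlx and Angpt1, which also led without those cells, when 272 genes were at least 2-fold higher and 172 at least 2-fold lower.

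Lhx9 encodes a LIM homeodomain factor required for the gonads to form, and lies on chromosome 1 (138825186 to 138848577, minus strand, GRCm38). It had 83.5 CPM in members and 6.61 CPM in Crabp1-rich cells, a log2 ratio of 3.66 (3.28 to 4.06). Hlx encodes a homeodomain factor of visceral mesenchyme without which the liver and gut stay small (chromosome 1, 184727140 to 184732619, minus strand). It had 92.1 CPM in members and 15.2 CPM in Crabp1-rich cells (2.60, 2.33 to 2.88). Angpt1 encodes the ligand of the endothelial receptor Tek (chromosome 15, 42424723 to 42676977, minus strand) and had 105 CPM in members and 18.4 CPM in Crabp1-rich cells (2.52, 2.27 to 2.77). All 3 intervals lay above 0. Without the 12 members and the 11 Crabp1-rich cells of mixed content the ratios were 3.72 for Lhx9, 2.66 for Hlx and 2.66 for Angpt1.

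Of the 9 further genes that led once those cells were left out, 8 are described here, and they covered several functions. The secreted Wnt antagonists Frzb and Sfrp2 had 53.8 and 675 CPM in members, against 11.46 and 182 CPM in Crabp1-rich cells. Robo2, a receptor for Slit guidance proteins, had 88.6 CPM in members and 24.3 CPM in Crabp1-rich cells (1.86). Lsamp, an adhesion protein of the cell surface, had 62.5 CPM in members and 12.2 CPM in Crabp1-rich cells (2.35). The other 4, which were the calcium-dependent phosphodiesterase gene Pde1a, Clca3a1, the orphan receptor gene Gpr85 and the palmitoyltransferase gene Zdhhc2, had log2 ratios between 2.24 (Zdhhc2) and 2.44 (Pde1a).

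On the lower side stood transcription factors and matrix genes of another kind. Foxd1, a forkhead factor known from the stroma of the kidney (chromosome 13, 98354242 to 98359305, plus strand), had 105 CPM in members and 594 CPM in Crabp1-rich cells (-2.50, -2.63 to -2.38). Ebf3, a helix-loop-helix factor (chromosome 7, 137193673 to 137314445, minus strand), had 3.16 CPM in members and 50.8 CPM in Crabp1-rich cells (-4.01, -4.80 to -3.31). The zinc finger factor Mecom had 8 CPM in members and 56.4 CPM in Crabp1-rich cells (-2.82). Of the 12 leading genes, 4 encode matrix proteins: Efemp1 (-2.93), Col9a1 (-2.32), Col12a1 (-1.84) and Fbln5 (-1.72). Efemp1, also called fibulin 3, had 24.4 CPM in members and 185 CPM in Crabp1-rich cells. Adamts18, a secreted metalloprotease, had 38.0 CPM in members and 237 CPM in Crabp1-rich cells (-2.64). The pentraxin gene Ptx3 (-2.40), the chemokine gene Cxcl13 (-1.80) and Tmtc4 (-1.81) were also among the 12. Of these 12 genes, 11 also led the lower side without the 12 members and the 11 Crabp1-rich cells of mixed content.

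The rule divides cells on one retinoic acid binding protein, and several other genes of that pathway were also lower in members. Aldh1a2, which encodes the enzyme that makes retinoic acid in the trunk (chromosome 9, 71215789 to 71296243, plus strand), had 109 CPM in members and 386 CPM in Crabp1-rich cells (-1.82, -1.95 to -1.70). The second cellular binding protein gene, Crabp2, had 83.9 CPM in members and 180.3 CPM in Crabp1-rich cells (-1.10). Dhrs3, whose product turns retinal back to retinol, had 48.0 CPM in members and 111 CPM in Crabp1-rich cells (-1.21). The receptors stood closer together: Rarb had 36.3 CPM in members and 47.6 CPM in Crabp1-rich cells, and Rara 57.1 and 42.8 CPM in the same order. Over the list of 20 pathway genes, 1 was at least 2-fold higher and 3 lower of 14 measured, with a median of -0.25. The 1 higher gene was Rbp4 (2.82), which stood at 0.14 without the 12 members and the 11 Crabp1-rich cells of mixed content.

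Other factors that mark position in the trunk also differed. Of 23 position and limb transcription factors measured, 7 were at least 2-fold higher in members and 4 lower, with a median of 0.21. Gata6 and Gata4, zinc finger factors of lateral mesoderm, had 299 and 36.3 CPM in members, against 113 and 7.64 CPM in Crabp1-rich cells (1.40 for Gata6 and 2.25 for Gata4). Tbx18, a T-box factor, had 66.4 CPM in members and 27.8 CPM in Crabp1-rich cells (1.26). Isl1, a LIM homeodomain factor, had 45.8 CPM in members and 19.8 CPM in Crabp1-rich cells (1.21). Alx4, a homeodomain factor of craniofacial and limb mesenchyme, was low in both, with 2.79 CPM in members and 19.9 CPM in Crabp1-rich cells (-2.84). Among 31 fibroblast and mesenchymal regulators measured, 1 was at least 2-fold higher in members, Creb3l1 (1.69), a factor that activates collagen genes. The 7 that were at least 2-fold lower were Foxd1, Ebf3, Ebf1 (-1.38), Ebf2 (-4.58), Twist2 (-1.29), Foxd2 (-1.13) and Meox1 (-1.05).

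Hox genes, which are expressed in overlapping domains along the body axis, were mostly somewhat lower in members: 2 were at least 2-fold higher and 2 lower of 24 measured, and 22 had a ratio below 0 (median -0.34). The 2 higher genes were neighbours in 1 cluster, Hoxd9 with 45.6 CPM in members and 12.2 CPM in Crabp1-rich cells (1.90), and Hoxd8 with 31.1 and 14.7 CPM (1.08). Hoxa7 (-1.25) and Hoxb9 (-1.06) were the lower ones. Hoxc8 had 229 CPM in members and 378 CPM in Crabp1-rich cells (-0.73).

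Growth factors for vessels and blood were another list with higher members. Ptn, which encodes the heparin-binding growth factor pleiotrophin (chromosome 6, 36714929 to 36810220, minus strand), had 2842 CPM in members and 1122 CPM in Crabp1-rich cells (1.34, 1.31 to 1.38). Nrg1, the ligand of ErbB receptors, had 37.4 CPM in members and 6.51 CPM in Crabp1-rich cells (2.52). Vegfd, a ligand of lymphatic and blood vessel receptors, had 30.0 CPM in members and 14.4 CPM in Crabp1-rich cells (1.06). With Angpt1 these made 4 genes at least 2-fold higher of 31 measured, and 1 was lower (Edn3, -1.17), with a median of 0.26. Genes known for supporting blood stem and progenitor cells were nearer to each other. Cxcl12, the ligand of Cxcr4, had 454 CPM in members and 592 CPM in Crabp1-rich cells (-0.38). Kitl, the ligand of Kit, had 40.6 CPM in members and 25.3 CPM in Crabp1-rich cells (0.68).

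In the matrix lists the medians lay close to that of all genes, with single genes farther out. Of 13 fibrillar collagens and partners measured, 3 were at least 2-fold higher in members and 1 lower, with a median of 0.21. The 3 were the chains of type VI collagen, Col6a1 (1.25), Col6a2 (1.15) and Col6a3 (1.15), and the 1 was Col12a1. Col1a2 had 1024 CPM in members and 810.1 CPM in Crabp1-rich cells (0.34). No basement membrane gene of 14 passed 2-fold in either direction (median 0.20). Of 32 elastic fibre and other matrix glycoprotein genes, 3 were at least 2-fold higher and 4 lower (median 0.22). Tnc, an adhesion-modulating glycoprotein, had 39.8 CPM in members and 14.7 CPM in Crabp1-rich cells (1.44), and Vcan, a large proteoglycan, 732 and 370.4 CPM (0.98). Cartilage, tendon and bone genes were the list with the lowest median of the 24 (-0.69, 1 higher and 5 lower of 10 measured), the 5 being Thbs4 (-3.74), Col9a1, Runx2 (-2.22), Gdf5 (-1.37) and Scx (-1.01). Without the 12 cells its median was -0.39, and so was that of the genes of G2 and M phase.

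Among signalling genes the exceptions were few. Of 16 PDGF and FGF signalling genes measured, 4 were at least 2-fold higher in members and 0 lower, with a median of 0.07. Fgf10, the FGF that drives budding of lung and limb, had 8.93 CPM in members and 1.14 CPM in Crabp1-rich cells (2.97, 2.01 to 4.07). Etv1, an ETS factor that responds to FGF, had 30.0 CPM in members and 12.1 CPM in Crabp1-rich cells (1.31), Pdgfc, a ligand of Pdgfra, 17.5 and 8.26 CPM (1.08), and Pdgfrl 19.5 and 8.57 CPM (1.19). Of 26 Wnt ligands, receptors and antagonists, 3 were at least 2-fold higher (Frzb, Sfrp2 and Wnt2) and 4 lower, with a median of -0.13. The 4 were Wif1 (-2.15), Dkk2 (-1.51) and Notum (-1.05), which restrain Wnt signalling, and Rspo3 (-1.44), which enhances it. Antagonists thus stood on both sides, and of 7 Wnt targets none passed 2-fold (median -0.13). Of 27 TGF-beta and BMP genes, 1 was higher (Tgfbr3, 1.06) and 2 lower (Gdf5 and Bmp2, -1.27), with a median of -0.00, and of 9 hedgehog receptors and targets none passed 2-fold (median -0.14). Of 31 adhesion and guidance genes, 4 were higher and 2 lower (median 0.10). Itga8 had 109 CPM in members and 44.2 CPM in Crabp1-rich cells (1.30), and Itgbl1, a secreted integrin-like protein, 0.744 and 9.09 CPM (-3.61).

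Genes of cell division were slightly lower in members. All 19 genes of G2 and M phase had a ratio below 0 (median -0.42), and none passed 2-fold. Top2a, a topoisomerase of dividing cells, had 487 CPM in members and 641 CPM in Crabp1-rich cells (-0.40). The median of 21 S phase genes was -0.18.

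Several of the differences followed the number of Crabp1 UMIs in E11.5 cells that met every other criterion. Lhx9 had 106 CPM in cells with 0 Crabp1 UMIs, 37.2 with 1, 38.0 with 2, 20.1 with 3 to 4, 14.4 with 5 to 9, 9.35 with 10 to 19 and 2.44 with 20 or more. The largest step in CPM was between 0 and 1 UMI, and the largest in fold between 10 to 19 and 20 or more. Ptn had 3066, 2379, 2313, 2053, 1697, 1255 and 845 CPM in the same bins, lower in every bin than in the one before. Foxd1 ran the other way, with 111, 92.7, 94.9, 145, 228, 424 and 807 CPM. Aldh1a2 had 92.9 CPM at 0 UMIs, 142 at 1, 209 at 2, 347 at 3 to 4, 421 at 5 to 9, 435 at 10 to 19 and 351 CPM at 20 or more, so it was highest at 10 to 19 and lower above that. Wt1, a zinc finger factor of the gonads and mesothelium, peaked in the middle, with 132 CPM at 0 UMIs, 281 CPM at 3 to 4 and 159 CPM at 20 or more.

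**Figure D2:**
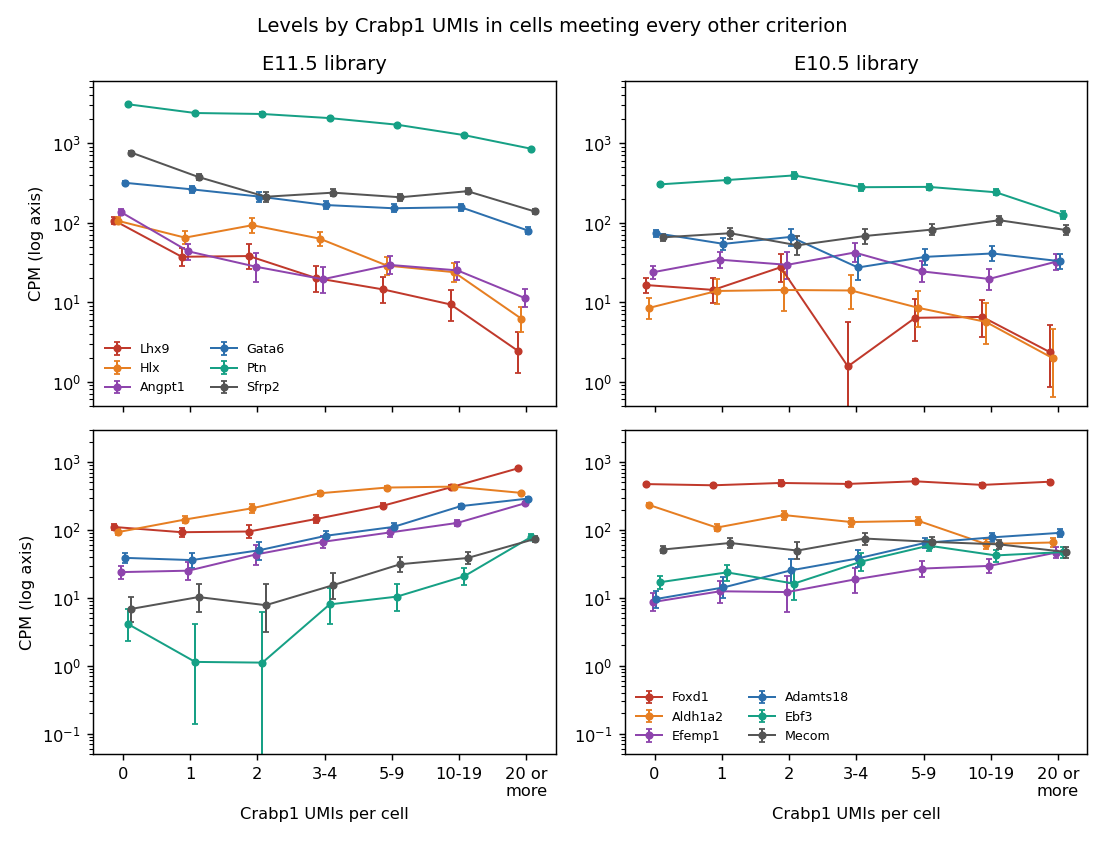
CPM on a log axis against Crabp1 UMIs per cell, in cells that met every other criterion, at E11.5 (left) and E10.5 (right). Upper panels show 6 genes higher in Crabp1-poor cells at E11.5 and lower panels 6 that were lower there. Points are levels of summed UMIs and bars exact Poisson 95% intervals, so Foxd1 climbs to 807 CPM at E11.5 while it is level at E10.5.

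Not every gene held the same relation to Crabp1 a day earlier, when 252 cells were Crabp1-rich, 11 of them of mixed content. At E10.5, Lhx9 had 15.7 CPM in Crabp1-poor and 4.91 CPM in Crabp1-rich cells (1.68, 1.11 to 2.28), and Hlx 10.1 and 5.06 CPM (1.00, 0.40 to 1.63). Adamts18 (-2.83, -3.19 to -2.50), Efemp1 (-1.84, -2.23 to -1.45) and Ebf3 (-1.35, -1.65 to -1.07) were lower in Crabp1-poor cells at E10.5 too. Foxd1 had 468 CPM in Crabp1-poor and 497 CPM in Crabp1-rich cells at E10.5, a log2 ratio of -0.09 (-0.16 to -0.02), and Angpt1 had 27.0 and 25.7 CPM (0.07, -0.23 to 0.37). Aldh1a2 stood on the other side, with 194 CPM in Crabp1-poor and 84.2 CPM in Crabp1-rich cells at E10.5 (1.21, 1.06 to 1.35), and so did Col9a1 (0.82, 0.68 to 0.95). Of the E10.5 Crabp1-poor cells, 70.5% held a UMI of Pax1 or Pax9, sclerotome factors taken up below, against 1.08% of E11.5 members. The groups compared at the 2 stages thus differ in make-up. The difference between the stages was not tested, since each has 1 library.

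Counted per cell, the same genes separated members without being present in all of them. In cells thinned to 5000 UMIs, which left 365 of 371 members and 551 of 552 Crabp1-rich cells, Lhx9 had a UMI in 23.3% of members (19.05 to 28.0) and 2.36% of Crabp1-rich cells. Unthinned, the Lhx9 shares were 34.8% of members and 5.07% of Crabp1-rich cells. For Hlx the thinned shares were 29.3% of members and 5.63% of Crabp1-rich cells, and for Angpt1 21.4% and 6.17%. Unthinned, they were 42.0% and 11.4% for Hlx and 31.3% and 14.7% for Angpt1. Red cells, which should lack these genes, gave 0.990% for Lhx9, 2.31% for Hlx and 1.98% for Angpt1 after thinning (303 of 365 red cells could be thinned, and the 365 had a median depth of 18167 UMIs). Ptn had a UMI in 95.6% of thinned members and 77.5% of Crabp1-rich cells, against 12.2% of red cells. Foxd1 had one in 25.5% of members and 71.5% of Crabp1-rich cells, against 5.94% of red cells. For Ptn and Foxd1 the unthinned shares were 99.7% and 41.5% of members and 88.6% and 80.8% of Crabp1-rich cells.

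Set against other classes of the library, some of these genes were widely shared and others were not. Lhx9 had 83.5 CPM in members, but 113 CPM in the 161 cells with at least 3 Barx1 UMIs and 183 CPM in the 590 cells with at least 3 Upk3b UMIs. Hlx had 92.1 CPM in members, 87.2 CPM in the Barx1 cells and 117 CPM in the 157 cells with at least 3 Lhx2 UMIs. Gata6 was likewise at 299 CPM in members, 299.7 CPM in the Barx1 cells and 286 CPM in the Lhx2 cells. Angpt1 was not shared in this way: it had 105 CPM in members and between 2.16 and 18.4 CPM in the Barx1, Lhx2, Upk3b, Acta2 (810 cells with at least 10 UMIs), endothelial, red and Crabp1-rich cells. Members were uneven in Angpt1: 31.3% of them held a UMI of it, and a subcluster of 60 members, described below, stood at 419.7 CPM. Sfrp2 had 633 CPM in members, 190.1 CPM in the Acta2 cells and 20.1 CPM in the Barx1 cells. Ptn had 2842 CPM in members, from 724 to 952 CPM in the Acta2, Lhx2, Barx1 and Upk3b cells, and 31.5 CPM in 259 endothelial cells. Twist1 had 508 CPM in members, 161 CPM in the Acta2 cells and 16.7 CPM in the Barx1 cells. The groups of cells named by Barx1, Lhx2, Upk3b and Acta2 are the ones the rule set aside, so their distance from members on those 4 genes is built in.

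Against all other E11.5 cells, 700 of 15388 genes were at least 2-fold higher in members (4.55%) and 1903 at least 2-fold lower (12.4%), with a median of 0.03. Red cell and liver markers, whose sums are given above, were higher in the rest, and their part in the lower calls was not tested. The 12 genes that led the higher side were the same 12 with and without the 12 cells of mixed content. Angpt1 (2.67), Frzb (2.61), Sfrp2 (2.53), Gpr85 (2.48), Pde1a (2.33), Clca3a1 (2.29), Hlx (2.22), Ptn (2.11) and Lsamp (2.07) have been described above. Among the others were a pair of adhesion genes: Pcdh19, a protocadherin, had 74.6 CPM in members and 15.2 CPM in the rest, and Itga8, an integrin chain, 109 and 26.2 CPM. On the lower side Kctd14 led, with 10.2 CPM in members and 214 CPM in the rest (-4.39). It was followed by genes of red cells (among them Slc25a37, Rhd, Car2 and Hemgn), the smooth muscle actin gene Actg2, the metallothionein genes Mt1 and Mt2, and Cited4, Ifitm1 and Rgcc. Without the 12 cells of mixed content the 12 genes that led the lower side were different ones, all of them with products made by the liver. This was in part built in. The 12 cells were picked partly for UMIs of Alb, Afp, Apoa1 and Ttr, while the rest kept its 1093 cells that met the same limits. Itih2 came first (-7.09), and Afp had 45.8 CPM in members and 2293 CPM in the rest (-5.65), while Kctd14 stood at -4.30.

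The 3 highest list medians against the rest were of matrix genes, and the rule itself asked for collagen. Fibrillar collagens and partners, without the 2 genes of the rule, had a median of 0.89 (6 higher and 2 lower of 15 measured), matrix proteases and their inhibitors 0.86 (4 higher and 0 lower of 17) and elastic fibre and other matrix glycoproteins 0.84 (13 higher and 6 lower of 35). Not all matrix lists stood high: basement membrane genes had a median of 0.21 (1 higher and 2 lower of 16) and small leucine-rich proteoglycans -0.04 (3 higher and 1 lower of 9). Dcn, the collagen-binding proteoglycan decorin, had 299.9 CPM in members and 97.8 CPM in the rest (1.62). Postn, a matrix protein of connective tissue, had 146 CPM in members and 58.0 CPM in the rest (1.34). Tcf21, a helix-loop-helix factor of visceral stroma, had 189 CPM in members and 66.4 CPM in the rest (1.51), and Osr1, a zinc finger factor of intermediate and lateral mesoderm, 64.7 and 24.2 CPM (1.42). Wnt targets (median -0.57, 0 higher and 3 lower of 9), cartilage, tendon and bone genes (-0.53, 0 higher and 5 lower of 19) and glycolysis genes (-0.48, 0 higher and 2 lower of 16) had the lowest medians. Without the 12 cells they stood at -0.50 for Wnt targets, -0.54 for cartilage, tendon and bone and -0.62 for glycolysis, and contractile genes at -0.25, against -0.07 with those cells.

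Members were also set apart from the rest by single regulators and ligands. Of 40 fibroblast and mesenchymal regulators measured, 13 were at least 2-fold higher in members and 8 lower (median 0.55). Meox2, a homeodomain factor of mesoderm, had 4.47 CPM in members and 1.15 CPM in the rest (1.96). Zeb2, a zinc finger factor of mesenchyme, had 493 CPM in members and 203 CPM in the rest (1.28), and Snai2, of the Snail family, 109.6 and 45.7 CPM (1.26). Of 39 position and limb factors, 9 were higher and 15 lower (median -0.19). Tbx18 (1.97), Gata6 (1.53), Tbx5 (1.49) and Lhx9 (1.15) were among the 9, and the limb and craniofacial factors Msx1 (-5.66), Shox2 (-3.43) and Irx3 (-4.25) among the 15. Fgf7, an FGF made by mesenchyme, had 4.09 CPM in members and 0.371 CPM in the rest (3.46, 2.67 to 4.21), and Vegfd 30.0 and 7.01 CPM (2.10). Of 29 Hox genes, Hoxd8 (1.27), Hoxd9 (1.44) and Hoxd10 (2.44, 1.77 to 3.06) were at least 2-fold higher, all 3 of 1 cluster, and Hoxb9 (-1.57) and Hoxd1 (-1.64) lower (median 0.52).

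**Figure D3:**
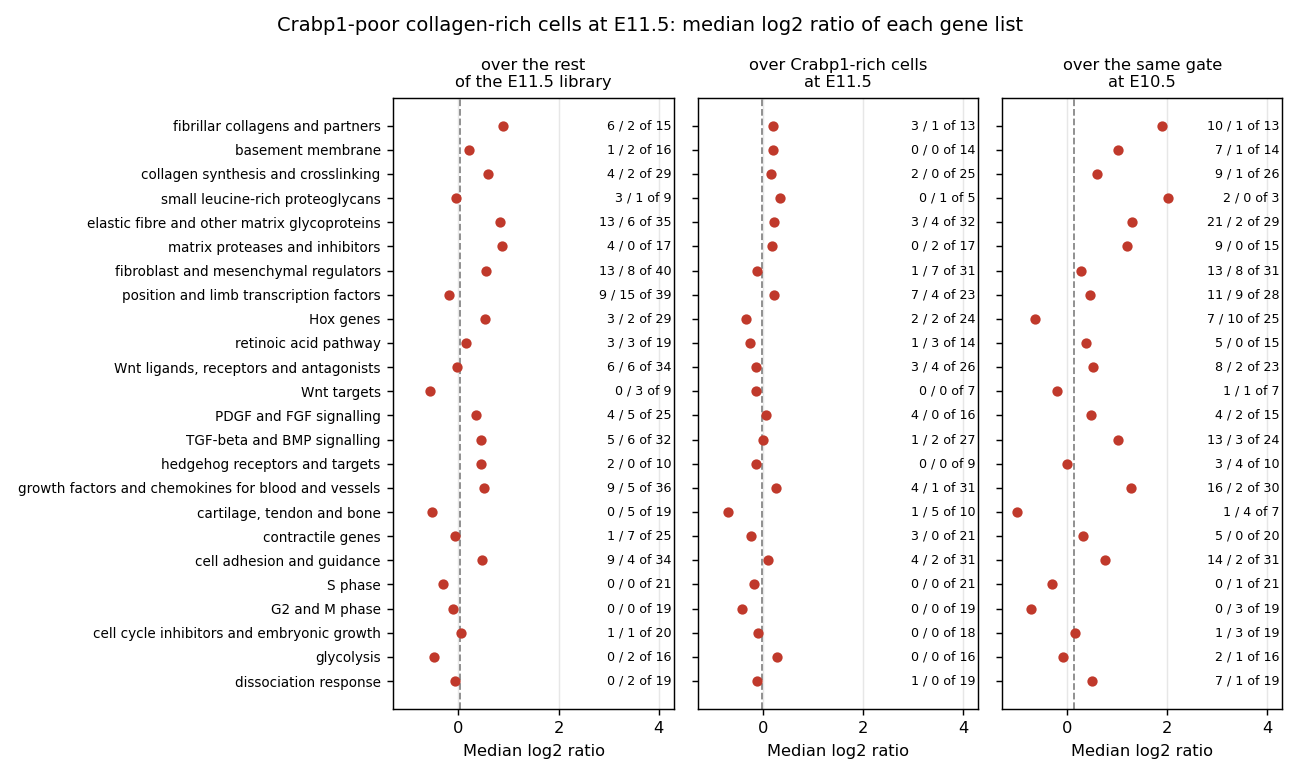
Median log2 ratio (horizontal axis) of each of 24 gene lists (vertical axis) in E11.5 members over the rest of the E11.5 library (left), over Crabp1-rich cells (middle) and over the same rule at E10.5 (right). Dashed lines mark the median of all genes, and the figures at the right of each panel count genes at least 2-fold higher and lower of those measured. Fibrillar collagens and partners lie at 0.89 against the rest, 0.21 against Crabp1-rich cells and 1.89 against E10.5.

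Members were not uniform. Leiden clustering at a resolution of 0.6, from which the rule's genes and 9 of the lists reported here (position and limb factors, Hox, retinoic acid, Wnt ligands and targets, growth factors, skeletal genes and both cell cycle lists) were kept out, gave 5 subclusters of 104, 89, 72, 60 and 46 cells. Their levels below leave out the 12 cells, of which subclusters 1, 2 and 5 held 4 each. They are described, not tested, since clustered cells separate on their genes by construction, and none was given a cell type name.

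Subcluster 1 (28.0% of members) was marked by genes of cell division. Its leading genes were Ube2c, Cenpf, Top2a, Mki67, Prc1, Nusap1, Ccnb1 and Hist1h1b, and the 19 genes of G2 and M phase summed to 9627 CPM, against 764 to 915 CPM in the other 4. Its cells were also the deepest, with a median of 17460.5 UMIs, and 16 of them were among the 8% with the highest doublet score. Its levels of Wt1 (194 CPM) and Lhx9 (68.3 CPM) lay between the lowest and the highest of the other subclusters.

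Subcluster 2 (24.0%) was led by Chgb, a granin of secretory granules, with 123 CPM against 1.03 CPM in other members. It was followed by genes that included Agtr2, Gap43, Igfbp3, Wnt4, Gata2 and Dcn. Wnt4, a ligand needed in kidney and gonad, had 374 CPM there and 67.7 to 145 CPM in the other subclusters. Wt1 (283 CPM) and Tcf21 (354 CPM) were also highest in this subcluster, and Hlx (7.33 CPM) and Igf1 (11.9 CPM) were lowest.

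Subcluster 3 (19.4%) was led by Igf1, the insulin-like growth factor (chromosome 10, 87858265 to 87937042, plus strand), with 737 CPM against 88.1 CPM in other members. Gpr85, Isl1, Cav1, Lsamp, Zcchc12, Pcdh19 and Hlx followed. Isl1 had 176 CPM there against at most 48.5 CPM in the other subclusters, Hlx 277 CPM and Gata6 592 CPM. Aldh1a2, at 13.0 CPM, and Foxd1, at 23.4 CPM, were lowest here. Ptn reached 5222 CPM, against 1630.3 CPM in subcluster 2.

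Subcluster 4 (16.2%) was led by Gm32647, the glutamate receptor gene Gria2, Angpt1, Sfrp2, Hapln1, Edil3, Cdh18 and Postn. Angpt1 had 419.7 CPM there and 12.8 to 115 CPM in the other subclusters, and Sfrp2 2165 CPM against 132 to 905 CPM. Lhx9 (249.7 CPM), Tbx18 (198 CPM), Hoxc8 (445 CPM) and Cxcl12 (1061 CPM) were also highest here. Of its 60 cells, 86.7% held 0 Crabp1 UMIs, the highest share of the 5, against 61.8% in subcluster 2.

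Subcluster 5 (12.4%) differed in its Hox genes. Without the 4 cells of mixed content, which otherwise made liver genes its leaders, it was led by genes that included Mpped2, Serpine2, Hoxa4, Cyp26a1, Pde5a, Adamts18 and Ctgf. Hoxa4 had 140.1 CPM there and 10.4 to 21.3 CPM in the other 4, and Hoxa5 had 308 CPM there and 41.6 to 116 CPM in the others. Farther along the clusters the order turned, with Hoxc8 at 41.5 CPM in subcluster 5 and 112 to 445 CPM elsewhere, and Hoxc9 at 7.90 CPM against 44.1 to 108 CPM. Hoxd9 and Hoxc10 each had 1 UMI over all 46 cells of subcluster 5 (1.55 CPM, up to 8.62). Cyp26a1, which encodes an enzyme that degrades retinoic acid, had 32 UMIs (63.2 CPM) in subcluster 5 and 0 in each of the others, where a count of 0 allows at most 1.84 to 4.90 CPM. Foxf1, a forkhead factor of visceral mesenchyme, had 63.2 CPM there and at most 18.6 CPM elsewhere.

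The division into 5 depended on the resolution. At 0.3 there were 3 clusters: all of subclusters 2 and 5 fell into 1, and all of subcluster 3 with 93.3% of subcluster 4 into another. At 1.0 there were 6, and 57.7% of subcluster 1 stayed together, against 89.9% to 97.8% of the other 4.

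**Figure D4:**
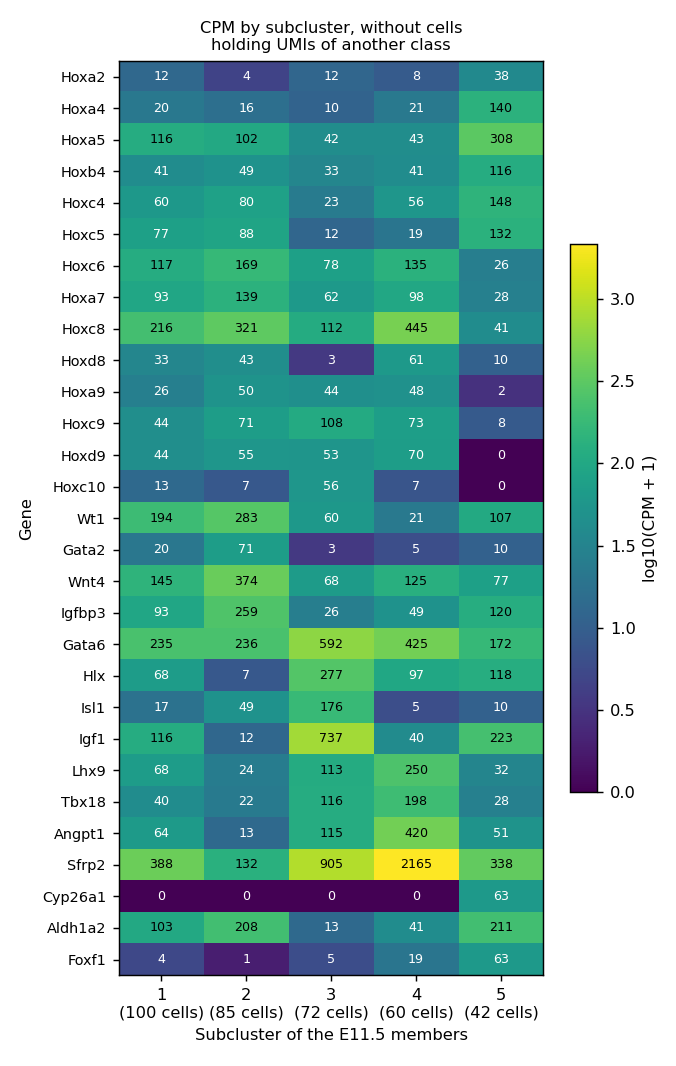
CPM of 29 genes (vertical axis) in the 5 subclusters of E11.5 members (horizontal axis), without cells holding UMIs of another class; colour is log10(CPM + 1) and the printed figure is the CPM. Subcluster 5 has the highest Hoxa4 (140 CPM) and Hoxa5 (308 CPM) and the lowest Hoxc8 (41 CPM).

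Compared with the E10.5 cells that met the same rule, 1187 of 10559 genes were at least 2-fold higher in E11.5 members (11.2%) and 324 at least 2-fold lower (3.07%). The median over all genes was 0.14, and with that median set to 0 the counts were 962 higher and 448 lower. The 2 groups held different kinds of cells. Of the E10.5 cells, 244 of 346 (70.5%, 65.4 to 75.3) held a UMI of Pax1 or Pax9, factors of the sclerotome, which forms the vertebrae, against 4 of 371 E11.5 members (1.08%, 0.295 to 2.74). The 5 sclerotome markers, of which 1 was at 0 in E11.5 members, summed to 67.0 CPM there and 627 CPM at E10.5. The 5 cartilage markers summed to 123 CPM in E11.5 members and 887 CPM at E10.5, and 5 markers of visceral mesenchyme to 19.5 and 260 CPM. For part of the genes and lists, stage values are therefore also given for the 102 E10.5 cells without a UMI of either gene. All other stage values below are against the 346 E10.5 cells together. The part of this difference in make-up in them was not tested.

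The genes lowest in E11.5 members against E10.5 were mostly those of the sclerotome and its neighbours. Pax1 had 0.930 CPM in E11.5 members and 311 CPM at E10.5, and Pax9 0.744 and 129 CPM. Col2a1, the collagen of cartilage, had 14.0 CPM in E11.5 members and 334 CPM at E10.5 (-4.58). Foxf2 (-6.13), Foxf1 (-3.93), Zic1 (-5.61), Tbx1 (-4.16), Meox1 (-3.33) and Col9a1 (-3.64), with Arg1, Saa1 and Fndc3c1, completed the 12. Against the 102 E10.5 cells without a Pax1 or Pax9 UMI, Col2a1 stood at -1.74 and Foxf1 at -2.07, and several of the other genes were closer than to all E10.5 cells. Zic1 had 1.67 CPM in E11.5 members and 2.53 CPM in those 102 cells, with intervals that overlap, Meox1 15.6 and 35.9 CPM, and Foxf2 1.12 and 10.1 CPM. In that comparison the counts of genes were 748 higher and 190 lower.

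Genes that were higher in E11.5 members included secreted factors and matrix. Ptn had 2842 CPM in E11.5 members, 855 CPM in E10.5 cells without a Pax1 or Pax9 UMI and 120.2 CPM in those with one. Igf1 had 182 CPM in E11.5 members, 19.7 CPM in E10.5 cells without a Pax UMI and 11.1 CPM in those with one. Sfrp2 had 633, 109 and 53.1 CPM in the same order, Itga8 109, 13.6 and 3.63 CPM, and Col1a2 1024, 292 and 159.7 CPM. All 5 were highest in E11.5 members and higher in E10.5 cells without than with a Pax UMI. Dcn was also highest in E11.5 members (299.9 CPM), but had 47.0 CPM in E10.5 cells without a Pax UMI and 84.1 CPM in those with one. Clca3a1 (5.92) and Pde1a (4.94) were among those of the 12 that were not liver or platelet genes. Without the 12 cells of mixed content, the genes that joined them included Gucy1a1, Itga8, Pcdh19, Igf1, Alcam, Syt1 and Sfrp2, with ratios between 3.32 (Sfrp2) and 4.36 (Gucy1a1).

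For the transcription factors that divided members from Crabp1-rich cells, much of the distance between stages lay between the 2 kinds of E10.5 cells. Gata6 had 299 CPM in E11.5 members, 219.8 CPM in E10.5 cells without a Pax UMI and 12.9 CPM in those with one. Lhx9 had 83.5, 50.03 and 3.44 CPM in the same order, a log2 ratio of 2.41 to all E10.5 cells and 0.75 to those without a Pax UMI. Hlx had 92.1, 30.3 and 2.90 CPM. Foxd1 ran the other way, with 105 CPM in E11.5 members, 247 CPM in E10.5 cells without a Pax UMI and 547 CPM in those with one.

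**Figure D5:**
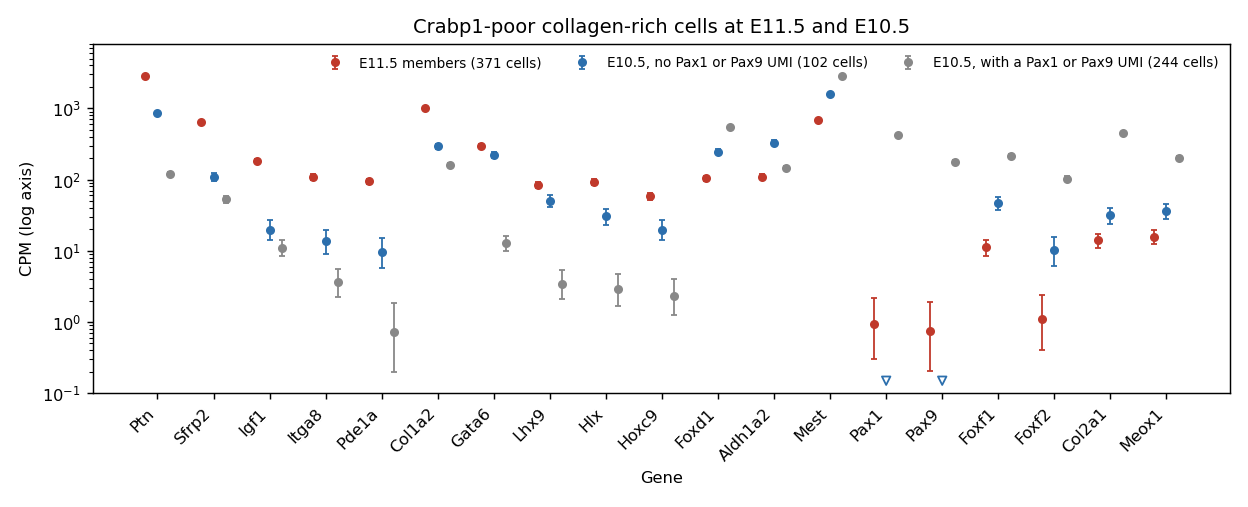
CPM on a log axis of 19 genes (horizontal axis) in 371 E11.5 members (red), 102 E10.5 cells without a Pax1 or Pax9 UMI (blue) and 244 E10.5 cells with one (grey). Bars are exact Poisson 95% intervals and open triangles mark 0 UMIs. Ptn stands at 2842, 855 and 120 CPM in the 3 groups.

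By list, the largest median against E10.5 with more than 3 genes measured was that of fibrillar collagens and partners (1.89, 10 higher and 1 lower of 13), which stood at 1.41 without the Pax cells. Type VI collagen chains were among the 10, with Col6a1 at 72.9 CPM in E11.5 members and 7.20 CPM at E10.5, Col6a2 at 67.9 and 8.94 CPM, and Col6a3 at 43.0 and 1.60 CPM. The rule set the same collagen minimum at both stages, while median depth was 12988 UMIs at E11.5 and 22092.5 at E10.5. It thus asked for a higher collagen fraction at E11.5, and its part in the collagen median was not tested. Elastic fibre and other matrix glycoproteins had a median of 1.30 (21 higher and 2 lower of 29) and 0.84 without the Pax cells. Growth factors for blood and vessels had 1.27 (16 higher and 2 lower of 30) and 0.95 without the Pax cells. TGF-beta and BMP signalling genes had 1.01 (13 higher and 3 lower of 24) and 0.42 without the Pax cells. Cartilage, tendon and bone genes had -1.01 (1 higher and 4 lower of 7) and, without the Pax cells, 0.71.

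Hox genes had a median of -0.64 against E10.5 (7 higher and 10 lower of 25): Hoxb2 to Hoxb9 were all lower in E11.5 members, from -0.80 (Hoxb3) to -2.30 (Hoxb9). Genes farther toward the tail end of other clusters were higher, with Hoxc8 at 1.67, Hoxa9 at 2.39, Hoxd9 at 2.99 and Hoxc9 at 3.08. Of these, Hoxc8 stood at 0.66 and Hoxc9 at 1.58 without the Pax cells. Nuclear factor I genes were higher, with Nfia at 243 CPM in E11.5 members and 45.4 CPM at E10.5 and Nfib at 678 and 154 CPM. Genes of G2 and M phase had a median of -0.71 (0 higher and 3 lower of 19), and -0.49 without the Pax cells. Mest, an imprinted gene of growing mesoderm, had 684 CPM in E11.5 members, 1567 CPM in E10.5 cells without a Pax UMI and 2828 CPM in those with one.

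Signalling genes divided in the same comparison. Of the hedgehog receptors and targets, 3 were at least 2-fold higher in E11.5 members and 4 lower of 10 measured (median -0.00). The lower genes included Gli1 (-1.62), Hhip (-2.04) and Ptch1 (-1.89), which hedgehog signalling itself induces. Against the E10.5 cells without a Pax UMI, Ptch1 stood at 0.71. The coreceptor genes Boc (2.13), Cdon (1.88) and Gas1 (1.61) were higher. PDGF and FGF signalling genes had a median of 0.48 (4 higher and 2 lower of 15) and -0.28 without the Pax cells. Of Wnt ligands, receptors and antagonists, 8 were higher and 2 lower of 23 (median 0.51), with Wnt4 at 167 CPM in E11.5 members and 17.7 CPM at E10.5 and Wnt5a, a ligand of tissue outgrowth, at 85.02 and 31.9 CPM. Among TGF-beta and BMP genes, Inhba, which encodes an activin chain, had 15.4 CPM in E11.5 members and 0.400 CPM at E10.5 (5.27, 3.67 to 7.58), and Bmpr1b, a BMP receptor of cartilage precursors, 0.558 and 17.6 CPM (-4.98, -7.28 to -3.40). Hgf, the hepatocyte growth factor, had 26.4 CPM in E11.5 members and 4.40 CPM at E10.5 (2.58), and Vegfa, the main vascular growth factor, 52.8 and 22.5 CPM (1.23). Cxcl12 stood the other way, at 454 CPM in E11.5 members and 775 CPM at E10.5 (-0.77).

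Regulators differed by gene in either direction. Of 31 fibroblast and mesenchymal regulators, 13 were at least 2-fold higher in E11.5 members and 8 lower (median 0.27, and 0.32 without the Pax cells). Nfix had 39.1 CPM in E11.5 members and 0.267 CPM at E10.5 (7.19, 5.32 to 10.25), Hic1, a repressor that marks quiescent mesenchymal progenitors, 71.1 and 6.54 CPM (3.44), and Tcf21 189 and 43.4 CPM (2.12). Meox2 (-2.47), Ebf1 (-1.94), Ebf2 (-4.16) and Ebf3 (-2.59) were among the 8. Position and limb factors had a median of 0.46 (11 higher and 9 lower of 28), which stood at -0.19 without the Pax cells. Tbx2 (3.21), Tbx3 (2.52), Gata2 (3.45) and Wt1 (2.06) were higher. Lin28a, an RNA-binding protein of early embryonic cells, had 1.86 CPM in E11.5 members and 8.01 CPM at E10.5 (-2.11). The median of genes that respond to dissociation was 0.50 (7 higher and 1 lower of 19) and -0.16 without the Pax cells, and their part in the stage values was not tested.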

How the data were processed

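Tissue was dissociated with collagenase and dispase and then trypsin-EDTA, and RNA was captured with droplet-based 3' chemistry, per the labels' protocols. The authors deposited 1 table of UMI counts per gene and barcode for each stage, made with Cell Ranger 5.0.0 on GRCm38/mm10 per the submitters' processing notes, and whether they removed doublets is not given in the sources used here. The tables listed 31053 genes, 12289 barcodes with 159619785 UMIs at E11.5 and 10996 barcodes with 151474708 UMIs at E10.5.

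Barcodes with at least 2000 UMIs, 500 genes and at most 10% mitochondrial UMIs were kept (8907 at E11.5 and 7665 at E10.5). The rule was applied to their raw UMIs, and the members and gene lists were chosen with earlier results of these data known. UMIs were summed per group, CPM leave out haemoglobin and mitochondrial genes, and genes with at least 50 UMIs in both groups together were compared by log2 ratio with exact conditional binomial 95% intervals. Intervals of shares are Clopper-Pearson and those of CPM exact Poisson. The genes named in each comparison were the 12 with the largest change in each direction by the interval bound nearest 0, among genes with at least 50 CPM in 1 group, leaving out the rule's genes, haemoglobin, mitochondrial, ribosomal protein and sex-linked marker genes, and, beside them, members of the 24 gene lists. Some of these genes are not reported here. Subclusters used 1500 variable genes, 15 principal components and 15 neighbours, and their 8 leading genes were ranked by fold with 20 CPM added to both sides. The intervals of ratios were checked on simulated Poisson counts, which lack the spread between cells, so the check covers counting error only.

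Alternatives covered cell filters and thresholds, thinning to 5000 UMIs, scaling, gene minimums, removal of the 8% of cells with the highest Scrublet score, and clustering resolution. Leaving out the cells with UMIs of another class, and those with a Pax1 or Pax9 UMI, was added after seeing the data. Gene positions are those of GENCODE mouse release 21 on GRCm38. Python 3.11.15, numpy 2.4.6, scipy 1.17.1, pandas 2.3.3, scanpy 1.11.5, leidenalg 0.10.2 and matplotlib 3.10.9 were used.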

Additional observations from a re-analysis of the deposited data

Results flagged for a closer look

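For 4 genes the ratio of Crabp1-poor to Crabp1-rich cells had the opposite sign at the 2 stages, with neither interval reaching 0. Aldh1a2 stood at -1.82 at E11.5 and 1.21 at E10.5, and Col9a1 at -2.32 at E11.5 and 0.82 at E10.5. Afp stood at 2.94 at E11.5 and -0.66 at E10.5, and Pf4 at 2.84 at E11.5 and -2.65 at E10.5, where the E11.5 values of both rest on the few members with liver or platelet genes. The E10.5 values have a like limit. Of the 252 Crabp1-rich cells at E10.5, 11 were of mixed content, against 1 of 346 Crabp1-poor cells, and these were not left out. Of the 96 Pf4 UMIs in those Crabp1-rich cells, 89 lay in cells with 20 or more Crabp1 UMIs. With 1 library per stage the difference was not tested.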

How the results depend on the processing

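No paired analysis was possible because each stage has 1 library and the comparisons within E11.5 use cells of the same library. The share of members at E11.5 (4.17%) was 2.93% with Crabp1 at 0, 7.14% with at least 1 Pdgfra UMI, 2.03% with at least 20 collagen UMIs and 6.48% in thinned cells. With at least 20 collagen UMIs, 1142 genes were at least 2-fold higher than in the rest, 169 higher than in Crabp1-rich cells and 645 higher than at E10.5. With at least 200 UMIs per gene the counts were 446 higher against the rest, 109 higher and 73 lower against Crabp1-rich cells, and 495 higher and 179 lower against E10.5. With a single UMI in each group they were 1640 higher against the rest, 1442 higher and 664 lower against Crabp1-rich cells, and 3007 higher and 747 lower against E10.5. Without Pax1 or Pax9 cells they were 748 higher and 190 lower against E10.5. The cause of these moves was not tested.

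Some ratios changed sign. With Crabp1 at 0, liver and platelet genes against Crabp1-rich cells stood at -0.49 (Afp), -0.31 (Apoa1), -0.061 (Apoa2), -0.70 (Fgb), -0.24 (Pf4), -0.13 (Rbp4) and -1.09 (Serpina6), and with at least 20 collagen UMIs Pf4 stood at -0.12. In thinned cells Apoa2 stood at -0.026, Gata2 at 0.69 and Smoc2 at 0.032 against Crabp1-rich cells, and Efemp1 at 0.018 against the rest. Without Pax1 or Pax9 cells, against E10.5, the median of cartilage, tendon and bone genes stood at 0.71, Alx1 at -0.17, Ptch1 at 0.71, Rgs5 at -0.51, Rspo3 at 0.62, Sema5a at 1.05 and Spon1 at 0.54. The cause was not tested. Of the other gene ratios recomputed, 2663 moved by less than their interval and 813 by more without a change of sign, and of list medians 928 and 79. Lhx9 against Crabp1-rich cells ranged from 2.98 to 4.79 over all alternatives, Ptn from 1.1 to 1.55 and Foxd1 from -2.72 to -1.93. Depth limits low genes, whose intervals are widest where a group holds few UMIs.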
